A study of Homo sapiens with 16 samples.

Results

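The subject is the difference between H11 and IFNw in HEK293 cells, a human embryonic kidney line, whose genotype is labelled as wild-type receptors. The members are the 4 libraries with that label and either ligand, 2 with H11 and 2 with IFNw, of 16 libraries in the series. The label of H11 is High-affinity INFL3 (H11), where INFL3 is read here as IFNL3, the type III interferon lambda 3, and IFNw is interferon omega, a type I interferon. The series asks how the geometry of Janus kinase pairs affects expression after type I and type III interferon, and it also holds IFNL3-treated and untreated cells and a second genotype labelled optimized. Both ligands were given at 100 nM for 15 min, and the labels also state a time of 24 hr without saying how the times relate. Cells of all groups were kept in Free-style medium with antibiotics. The sources used here do not say what the wild-type genotype is at the DNA level, or whether the cells are a clone. The labels mark the replicates as biological without saying whether they came from separate cultures. The p-values measure the spread between these libraries, which may be technical. No group treated with vehicle was analysed here, and untreated wild-type cells (2 libraries) give the level without a ligand. The optimized genotype with the same ligands (4 libraries) serves to test whether the H11 and IFNw difference depends on the receptor, and all 16 libraries enter the fit and its scaling.

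Type I interferons such as interferon omega bind a receptor made of IFNAR1 and IFNAR2. Type III interferons bind IFNLR1 together with IL10RB, a chain shared with the interleukin-10 receptor. Behind both receptors stand the kinases JAK1 and TYK2, which phosphorylate STAT transcription factors. Phosphorylated STAT proteins join IRF9 to form ISGF3, which binds interferon-stimulated response elements (ISREs) in the promoters of antiviral genes. The textbook account therefore gives both ligands a shared set of target genes through separate receptors. IFNLR1 is largely restricted to epithelial and some immune cells, whereas the type I receptor is found on nearly every cell type.

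The promoters of 5 interferon-stimulated genes are shown as examples from the 3 outcomes below, and all 5 hold the letters searched for. ISG15, IFI6 and B2M were lower with H11 than with IFNw, IFIT3 did not differ past the threshold, and OAS3 was higher. The sequences are the 250 bases before the start of each gene from RefSeq, build GRCh38.p14, on the gene's strand. Capitals mark letters of the ISRE, searched on both strands as TTTC, any 2 bases and TTTC, which reads on the other strand as GAAA, any 2 bases and GAAA, and overlapping matches run together.
ISG15 (chr1:1013247-1013496, plus strand): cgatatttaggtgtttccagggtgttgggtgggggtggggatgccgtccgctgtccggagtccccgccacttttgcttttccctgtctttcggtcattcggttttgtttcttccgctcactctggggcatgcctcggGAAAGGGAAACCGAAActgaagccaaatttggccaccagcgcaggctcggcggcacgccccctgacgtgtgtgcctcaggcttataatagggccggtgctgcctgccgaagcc
IFI6 (chr1:27672193-27672442, minus strand): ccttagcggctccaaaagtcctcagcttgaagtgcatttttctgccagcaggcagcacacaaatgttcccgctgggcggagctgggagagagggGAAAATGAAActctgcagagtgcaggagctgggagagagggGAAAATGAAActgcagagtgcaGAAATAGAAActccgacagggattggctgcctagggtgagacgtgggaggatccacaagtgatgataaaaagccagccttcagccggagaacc
B2M (chr15:44711267-44711516, plus strand): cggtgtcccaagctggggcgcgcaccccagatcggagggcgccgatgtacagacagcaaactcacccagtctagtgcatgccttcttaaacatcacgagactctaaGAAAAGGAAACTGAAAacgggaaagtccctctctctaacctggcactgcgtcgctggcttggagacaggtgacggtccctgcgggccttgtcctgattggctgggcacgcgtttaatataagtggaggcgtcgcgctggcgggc
IFIT3 (chr10:89327747-89327996, plus strand): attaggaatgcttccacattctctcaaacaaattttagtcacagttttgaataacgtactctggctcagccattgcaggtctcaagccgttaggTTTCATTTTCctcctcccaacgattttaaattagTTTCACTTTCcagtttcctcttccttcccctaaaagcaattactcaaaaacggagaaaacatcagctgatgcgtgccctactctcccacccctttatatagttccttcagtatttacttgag
OAS3 (chr12:112938224-112938473, plus strand): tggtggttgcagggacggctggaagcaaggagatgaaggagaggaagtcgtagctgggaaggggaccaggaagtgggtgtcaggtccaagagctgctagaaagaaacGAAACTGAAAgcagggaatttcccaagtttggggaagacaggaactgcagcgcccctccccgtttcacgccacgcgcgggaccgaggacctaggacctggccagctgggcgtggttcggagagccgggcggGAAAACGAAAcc
There were 3 matches in IFI6 and 2 in each of the other genes shown, so the marked letters are present in some genes of all 3 outcomes. Other genes of each outcome held no match, such as OAS1 and RSAD2 (lower), IRF9 and CMPK2 (not past the threshold) and DDX58 and STAT2 (higher). Among all 35116 promoters of the table, searched from 250 bases before to 50 bases after the start, 3.57% held the letters. A comparison of that share between interferon genes that were lower, higher and not past the threshold is void, because promoters were to hand for only 38 of 57 genes that were lower and 17 of 22 genes that were higher.

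Levels below are CPM, counts relative to the TMM-scaled library size, and n is 2 libraries per group. Fold changes are log2 values ± SE for H11 minus IFNw, so a negative value means less RNA with H11. Tests are from edgeR (quasi-likelihood), with p-values adjusted by Benjamini-Hochberg over the 12704 genes tested, and a gene is past the threshold at an adjusted p under 0.05. Total counts of the 4 libraries lay between 8755108 and 9499486 reads, with a read for 14346 to 15153 genes. In these bulk samples, fewer responding cells and less RNA per cell cannot be told apart. The assay has 1 target per gene of unstated length, so levels are compared between groups and not between genes. Reads of near-identical genes (HLA, IFITM, histone and ribosomal protein genes) may be split between copies, and the sources used here do not say whether strand was used.

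The response to H11 differed from the response to IFNw over a large share of the measured genes, in both directions. Of 12704 genes, 6632 (52.2%) passed the threshold, 3373 (26.6%) higher with H11 and 3259 (25.7%) lower with H11. A called difference over 2-fold was found for 3293 genes (25.9%), 1420 higher and 1873 lower. Without adjustment 7318 genes (57.6%) had a p under 0.05, and the libraries of the 2 ligands did not overlap for 9854 genes (77.6%). The 95% interval of the difference lay within 2-fold for 4930 genes (38.8%), and the median over all genes was 0.05. TMM factors were 1.26 and 1.27 in the H11 libraries, against 0.821 and 0.836 in the IFNw libraries. TMM scaling assumes that most genes do not differ. The near-equal counts in the 2 directions, and the direction of small differences, rest on it. Spike-in targets had at most 1 read in any library and could not check it. Against untreated cells, 2317 genes (18.2%) were higher and 2615 (20.6%) lower with H11, beside 2109 (16.6%) higher and 1879 (14.8%) lower with IFNw. These last counts share their untreated libraries and are given side by side only.

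Transcript length went with the differences between the ligands, so it is set out before the gene lists. Across genes, Spearman's rho between transcript length and a library's level relative to the mean of all 16 libraries was 0.293 and 0.275 in the H11 libraries, against -0.306 and -0.303 in the IFNw libraries and 0.092 and 0.108 in untreated wild-type cells. Wild-type cells with IFNL3 had 0.280 and 0.283, and optimized cells with H11 had -0.300 and -0.295. The 50 most abundant targets took 18.5% and 18.0% of reads with H11, against 28.4% and 27.8% with IFNw. With genes in 5 equal bins of transcript length, the median log2 difference was -0.30 in the shortest bin and 0.53 in the longest. A second fit removed a smooth trend of length from each library, after which these medians were 0.05 and 0.03. That fit put 6115 genes (48.1%) past the threshold, and 5176 genes (40.7%) were past it in both fits with the same sign. Transcript length here is a median over a gene's annotated transcripts and stands in for the length of the counted target, which is unstated. The median can be far from the form expressed, so values with the offset are a second scaling and not corrected values. Whether the length trend is technical was not tested, so values from the fit with the length offset are given where they change a call.

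**Figure D1:**
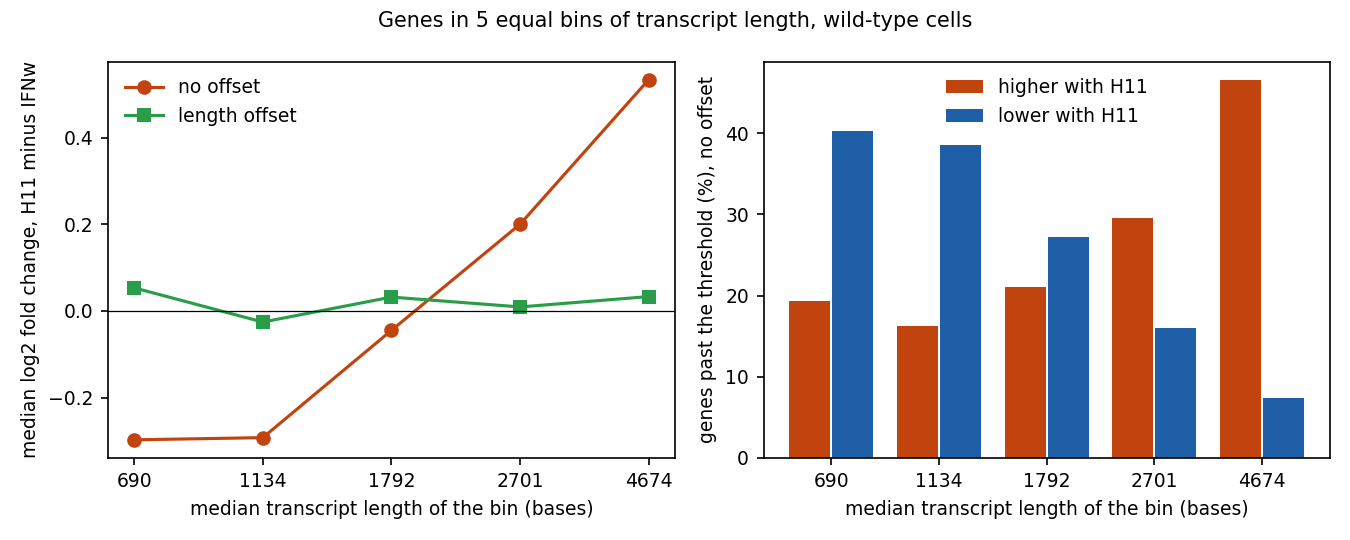
Left, median log2 fold change (H11 minus IFNw, wild-type cells) in 5 equal bins of transcript length, labelled by the median length of each bin in bases, without (circles) and with (squares) the length offset. Right, percent of genes in each bin past the threshold without the offset, higher and lower with H11. Long-transcript genes are more often higher with H11 and short-transcript genes more often lower, and the medians with the offset lie near 0.

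Of the receptor chains and kinases, IL10RB and the interferon gamma receptor chains were lower with H11, and the ligand-binding chains of both interferon types did not pass the threshold. IFNLR1, listed as IL28RA and the chain that binds type III interferons, was low, at 1.39 and 3.39 CPM with H11, against 3.48 and 3.02 CPM with IFNw and 2.50 and 2.49 CPM in untreated cells. IFNAR1, the type I chain that holds TYK2, was at 16.4 and 20.6 CPM with H11, against 13.8 and 11.2 CPM with IFNw, with a log2 difference of 0.57 ± 0.24 and an edgeR adjusted p of 0.0516. IFNAR2, the other type I chain, was at 32.8 and 27.7 CPM with H11, against 31.0 and 33.4 CPM with IFNw, with a 95% interval of the log2 difference from -0.50 to 0.32. For IL28RA the interval ran from -1.33 to 0.46, and its libraries overlapped between the ligands. IL10RB was at 9.65 and 11.9 CPM with H11, against 21.4 and 22.9 CPM with IFNw and 22.6 and 20.6 CPM in untreated cells, so both H11 libraries lay below the other 4 (log2 -1.04 ± 0.17, edgeR adjusted p = 7.68e-05). The interferon gamma receptor chains IFNGR1 (-0.93) and IFNGR2 (-0.70) were also lower with H11. Among the kinases, JAK1 was at 16.3 and 13.5 CPM with H11, against 7.66 and 7.09 CPM with IFNw and 15.3 and 15.9 CPM in untreated cells, and its difference of 1.01 ± 0.28 became 0.50 with the length offset (edgeR adjusted p = 0.151) and 0.95 without replicate 2 of IFNw (edgeR adjusted p = 0.0509). TYK2 (-0.36) and JAK2 (0.48) did not pass the threshold, and JAK3 had too few reads to test. Of 10 receptor and kinase genes tested, 1 (JAK1) was higher and 4 were lower with H11, beside 26.6% higher and 25.7% lower over all genes. The median of the 10 was -0.40, and the fourth lower gene was the erythropoietin receptor EPOR (-0.85). None was higher with the length offset or without replicate 2 of IFNw, and 2 were higher without replicate 1 of H11, with no low-count filter, with the compared groups alone or with a replicate block. The median was -0.13 with the length offset and -0.63 without replicate 2 of IFNw.

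Of the ISGF3 subunits IRF9 and STAT2, IRF9 did not pass the threshold and STAT2 was higher with H11, while both were above untreated cells with either ligand. IRF9, the DNA-binding partner in ISGF3, was at 108 and 112 CPM with H11, against 118 and 116 CPM with IFNw and 4.88 and 3.99 CPM in untreated cells, a log2 difference of -0.09 ± 0.12 with a 95% interval from -0.35 to 0.16. STAT2, which brings a transactivation domain to ISGF3, was at 135 and 129 CPM with H11, against 84.4 and 89.6 CPM with IFNw and 35.5 and 28.1 CPM in untreated cells. STAT2 was higher with H11 (log2 0.60 ± 0.13, edgeR adjusted p = 0.000722). Its libraries of the 2 ligands did not overlap, as for 77.6% of all genes. IRF1, a transcription factor induced by interferons, was at 20.7 and 18.2 CPM with H11, against 8.07 and 8.93 CPM with IFNw and 5.86 and 5.29 CPM in untreated cells, 2.28-fold higher with H11 (log2 1.19 ± 0.19, edgeR adjusted p = 5.75e-05). IRF7, which amplifies interferon production, was at 171 and 232 CPM with H11, against 245 and 329 CPM with IFNw and 10.2 and 9.27 CPM in untreated cells. Both H11 libraries lay below both IFNw libraries, but its difference of -0.51 ± 0.20 (edgeR adjusted p = 0.0384) missed the threshold with the length offset (edgeR adjusted p = 0.0508) and without replicate 1 of H11 (-0.30, edgeR adjusted p = 0.314) or replicate 2 of IFNw (-0.29, edgeR adjusted p = 0.338). USP18, a protease that removes ISG15 and blocks the type I receptor, was at 91.1 and 98.7 CPM with H11, against 141 and 156 CPM with IFNw and 18.4 and 21.6 CPM in untreated cells, lower with H11 (log2 -0.65 ± 0.13, edgeR adjusted p = 0.000606). PTPN11, the phosphatase SHP2, was at 185 and 170.3 CPM with H11, against 71.3 and 61.6 CPM with IFNw and was higher with H11 (log2 1.42 ± 0.16, edgeR adjusted p = 1.35e-06). Over the 17 signalling genes tested, 5 were higher, 3 lower and 9 not past the threshold, and 1 was lower with the length offset. The share that was higher was near the 26.6% over all genes.

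Antiviral effectors were more often lower with H11 than higher. Of 57 tested, 29 were lower and 11 higher, beside 25.7% lower and 26.6% higher over all genes, and 17 did not pass the threshold. The share that was higher was thus below that of all genes. For the effectors the median was -0.71, and with the length offset 32 were lower and 11 higher. Without replicate 1 of IFNw 7 were higher. Against untreated cells, 44 of the 57 were above the threshold with H11 and 51 with IFNw, beside 18.2% and 16.6% over all genes. None was below it with either ligand, beside 20.6% (H11) and 14.8% (IFNw) over all genes. Values past the threshold ran from -7.87 to -0.57 among those that were lower and from 0.42 to 1.73 among those that were higher. IFI27, a mitochondrial protein much used as an interferon marker, had the lowest log2 difference of the 12704 genes tested. It was at 13.5 and 18.4 CPM with H11, against 4199.9 and 3263 CPM with IFNw and 0.434 and 0.0997 CPM in untreated cells. IFI27 was thus present with H11 in both libraries above the untreated level and yet 234-fold lower than with IFNw (log2 -7.87 ± 0.21, edgeR adjusted p = 7.54e-14). IFI6, an endoplasmic reticulum protein that limits flavivirus replication, was at 699 and 689 CPM with H11, against 8315 and 7577 CPM with IFNw and 47.5 and 42.0 CPM in untreated cells (log2 -3.52 ± 0.12, edgeR adjusted p = 2.73e-12). IFI44 was at 23.3 and 18.6 CPM with H11, against 322 and 295 CPM with IFNw and 0 and 0 CPM in untreated cells, 14.7-fold lower with H11 (log2 -3.88 ± 0.16, edgeR adjusted p = 8.35e-11). In each of these genes the H11 libraries stood between the untreated and the IFNw libraries.

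Membrane proteins that stop virus entry followed the same order. IFITM1 was at 40.9 and 52.0 CPM with H11, against 787 and 789 CPM with IFNw and 5.97 and 4.69 CPM in untreated cells (log2 -4.08 ± 0.15, edgeR adjusted p = 5.51e-12). IFITM3 was at 41.2 and 50.2 CPM with H11, against 788 and 782 CPM with IFNw and 3.58 and 3.99 CPM in untreated cells (log2 -4.10 ± 0.17, edgeR adjusted p = 1.25e-11). Their near-identical sequences may share reads, so the values are not independent. The complement inhibitor SERPING1 had 1 read over both H11 libraries and 46 over both IFNw libraries, a ratio of 73.3 (IFNw over H11) with an exact 95% interval from 12.5 to 2959 that covers counting error only. RTP4, a chaperone of membrane receptors, was at 0.261 and 0.331 CPM with H11, against 4.87 and 4.34 CPM with IFNw and 0 and 0 CPM in untreated cells (log2 -3.89 ± 0.68, edgeR adjusted p = 0.000195).

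The oligoadenylate synthetases, which make the second messenger that activates RNase L, did not move as a family. OAS1 was at 71.5 and 64.4 CPM with H11, against 399 and 418 CPM with IFNw and 0 and 0.499 CPM in untreated cells, 6.02-fold lower with H11 (log2 -2.59 ± 0.17, edgeR adjusted p = 2.16e-09). OASL, a relative without synthetase activity, was at 3.13 and 3.97 CPM with H11, against 20.0 and 18.9 CPM with IFNw and 0 and 0 CPM in untreated cells (log2 -2.45 ± 0.27, edgeR adjusted p = 1.71e-06). OAS3 was at 115 and 102 CPM with H11, against 43.4 and 44.5 CPM with IFNw and 3.47 and 1.99 CPM in untreated cells, 2.46-fold higher with H11 (log2 1.30 ± 0.15, edgeR adjusted p = 1.73e-06). OAS1 and OAS3 thus differed in opposite directions, and for each the 2 ligands' libraries were fully apart. Libraries were apart in this way for 77.6% of all genes.

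The IFIT genes, which bind viral RNA ends, were divided in the same way. IFIT1 was at 722 and 637 CPM with H11, against 2135 and 1895 CPM with IFNw and 7.71 and 9.18 CPM in untreated cells, 2.96-fold lower with H11 (log2 -1.57 ± 0.12, edgeR adjusted p = 1.26e-08). IFIT2 was at 60.1 and 62.0 CPM with H11, against 21.4 and 21.8 CPM with IFNw and 0.543 and 0.499 CPM in untreated cells, 2.82-fold higher with H11 (log2 1.5 ± 0.21, edgeR adjusted p = 1.07e-05). IFIT3 was at 68.8 and 68.8 CPM with H11, against 80.2 and 76.9 CPM with IFNw and 0 and 0 CPM in untreated cells, with a log2 difference of -0.19 ± 0.13, a 95% interval from -0.46 to 0.08 and an edgeR adjusted p of 0.231. IFIT3 did not pass without the length offset, although all H11 values lay below all IFNw values, and its value with the offset was -0.33 (edgeR adjusted p = 0.0482). IFIT3 had no read in either untreated library, so its level was at least 441-fold (H11) and at least 503-fold (IFNw) that of an upper limit of 3 reads over the untreated group. RSAD2 (viperin), which makes a chain-terminating nucleotide, was at 33.4 and 22.2 CPM with H11, against 68.6 and 58.1 CPM with IFNw and 0.109 and 0.0997 CPM in untreated cells, 2.28-fold lower with H11 (log2 -1.19 ± 0.18, edgeR adjusted p = 3.39e-05). MX1, a textbook interferon marker, was at 0.696 and 0.745 CPM with H11, against 0.557 and 1.05 CPM with IFNw and a mean of 0.480 CPM in untreated cells. A difference between the ligands was not detectable at this depth (log2 -0.16 ± 0.70, 95% interval from -1.63 to 1.30). Its log2 differences from untreated cells were 0.60 with H11 and 0.76 with IFNw, far below those of the other genes of this paragraph.

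ZC3HAV1, the zinc-finger antiviral protein, was the effector raised most by H11 over IFNw among those past the threshold. It was at 236 and 203 CPM with H11, against 68.9 and 63.7 CPM with IFNw and 33.6 and 38.8 CPM in untreated cells, 3.31-fold higher with H11 (log2 1.73 ± 0.18, edgeR adjusted p = 4.55e-07). It also counts among 8 interferon-induced PARP genes tested, of which 3 were higher and 1 lower, beside 26.6% higher and 25.7% lower over all genes. PARP9, a partner of the ubiquitin ligase DTX3L, was at 14.9 and 14.2 CPM with H11, against 6.54 and 4.47 CPM with IFNw and 1.30 and 0.898 CPM in untreated cells (log2 1.40 ± 0.26, edgeR adjusted p = 0.000235). DTX3L was at 133 and 131 CPM with H11, against 76.7 and 72.0 CPM with IFNw (log2 0.83 ± 0.15, edgeR adjusted p = 0.000218), so both partners were higher with H11. PARP10, a mono-ADP-ribosyl transferase, went the other way, at 11.4 and 11.3 CPM with H11, against 61.1 and 61.5 CPM with IFNw and 1.95 and 1.20 CPM in untreated cells (log2 -2.44 ± 0.17, edgeR adjusted p = 2.93e-09).

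**Figure D2:**
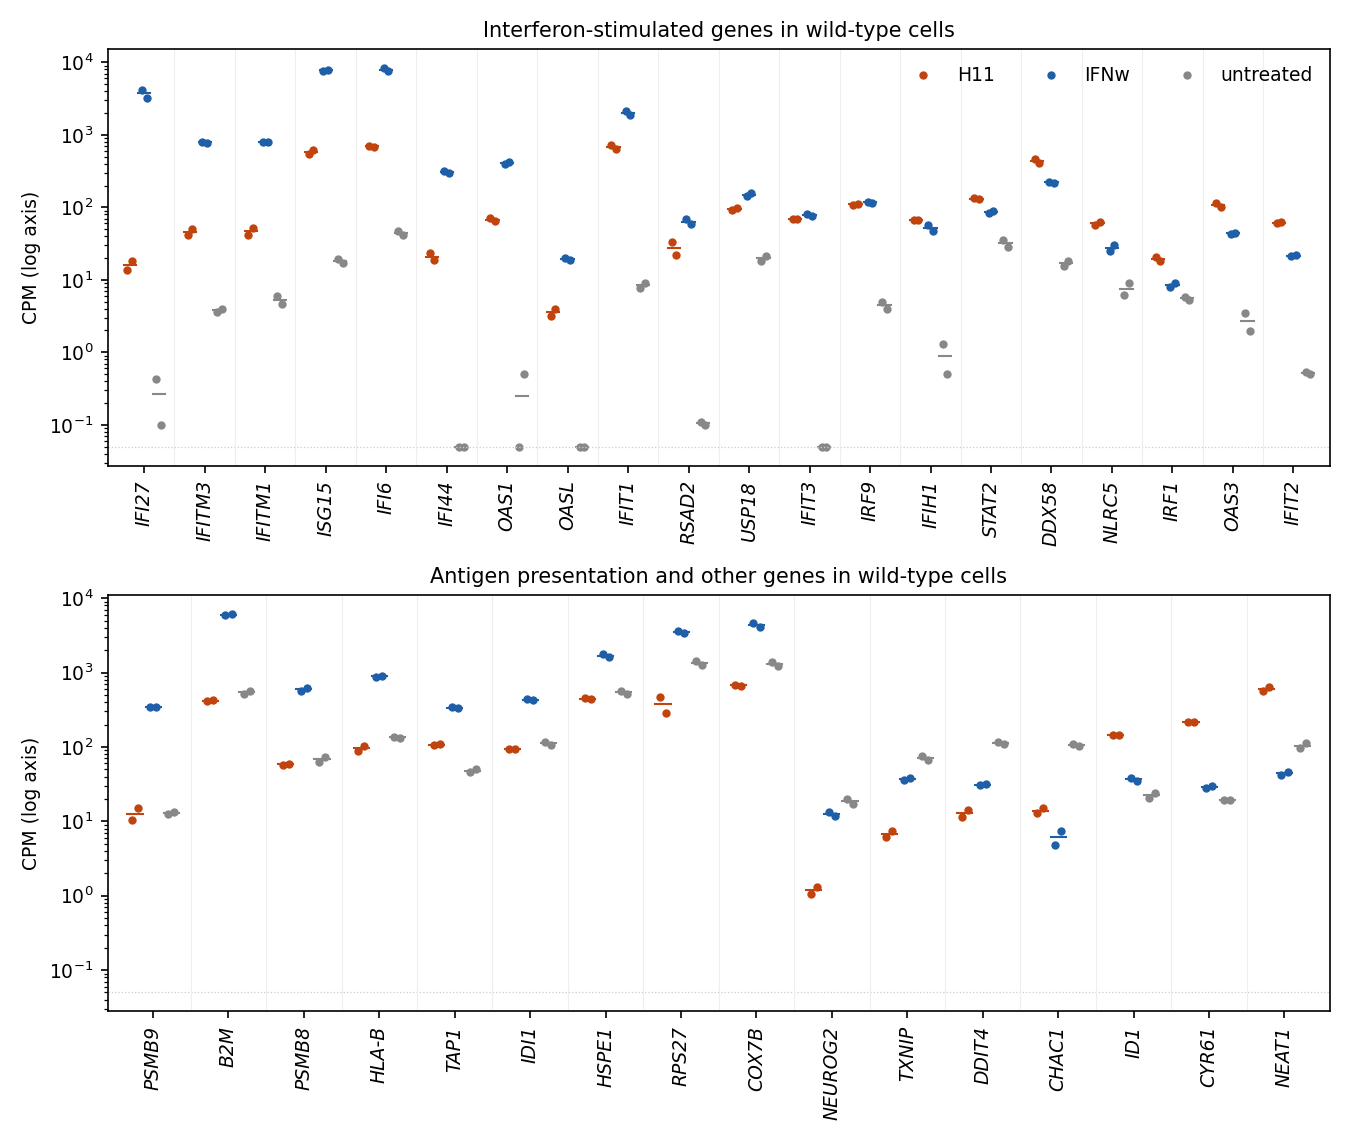
Levels in CPM (log axis) of interferon genes (top) and of antigen presentation and other genes (bottom) in wild-type cells with H11, with IFNw and untreated, each point a library and each bar the mean of 2. Points at the dotted line are libraries with 0 reads. Genes at the left of the top panel, such as IFI27 and IFITM3, are lower with H11 and those at the right, such as OAS3 and IFIT2, are higher, while IRF9 lies at like levels with both ligands.

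Cytosolic sensors of viral RNA were divided by member. DDX58 (RIG-I), which senses RNA with triphosphate ends, was at 465 and 409.5 CPM with H11, against 222 and 219.7 CPM with IFNw and 15.4 and 18.4 CPM in untreated cells, 1.98-fold higher with H11 (log2 0.98 ± 0.14, edgeR adjusted p = 1.11e-05). IFIH1 (MDA5), which senses long double-stranded RNA, was at 67.0 and 66.1 CPM with H11, against 56.5 and 47.2 CPM with IFNw and 1.30 and 0.499 CPM in untreated cells, and its interval from -0.04 to 0.76 included no difference. DHX58 (LGP2), a regulator of both, was at 3.13 and 2.65 CPM with H11, against 16.8 and 18.5 CPM with IFNw and 0.326 and 0.399 CPM in untreated cells, 6.11-fold lower with H11 (log2 -2.61 ± 0.25, edgeR adjusted p = 3.04e-07). DDX60 was lower too, at 33.8 and 33.0 CPM with H11, against 92.4 and 82.1 CPM with IFNw and 0.977 and 1.10 CPM in untreated cells (log2 -1.38 ± 0.13, edgeR adjusted p = 1.03e-07). The adaptor MAVS gave 0.70 ± 0.17 (edgeR adjusted p = 0.00279), and -0.15 with the length offset, so its direction rests on the scaling. Of 6 sensor genes tested, 2 were higher and 2 lower, beside 26.6% higher and 25.7% lower over all genes, and the sensor median was 0.34. With the length offset 1 was higher and the median was -0.05. Leaving out 1 library also moved the median, to 0.11 without replicate 2 of IFNw, 0.22 without replicate 1 of H11 and 0.54 without replicate 1 of IFNw.

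ISG15, a ubiquitin-like protein that is both conjugated to proteins and secreted, was at 544 and 627 CPM with H11, against 7706 and 7857 CPM with IFNw and 19.2 and 17.0 CPM in untreated cells, 13.3-fold lower with H11 (log2 -3.73 ± 0.14, edgeR adjusted p = 5.51e-12). Its activating and conjugating enzymes were lower as well. UBA7, the activating enzyme, was at 7.39 and 7.53 CPM with H11, against 16.3 and 17.6 CPM with IFNw and 0.76 and 0.399 CPM in untreated cells (log2 -1.18 ± 0.24, edgeR adjusted p = 0.000603). UBE2L6, the conjugating enzyme, was at 13.6 and 15.5 CPM with H11, against 109.8 and 124 CPM with IFNw and 25.3 and 23.9 CPM in untreated cells (log2 -3.01 ± 0.16, edgeR adjusted p = 1.88e-10). Both UBE2L6 values with H11 lay below the untreated values, whereas both UBA7 values with H11 lay above them. TRIM25, a ubiquitin ligase that acts on RIG-I and can conjugate ISG15, was higher, at 138 and 135 CPM with H11, against 69.2 and 66.7 CPM with IFNw and 43.3 and 32.3 CPM in untreated cells (log2 1.00 ± 0.15, edgeR adjusted p = 1.88e-05). In this group of 7 genes, 5 were lower and 2 higher, beside 25.7% lower and 26.6% higher over all genes. Besides TRIM25, the higher one was the ligase HERC5 (log2 0.34). TRIM25 alone was higher with the length offset, with DESeq2, with DESeq2 size factors, with no low-count filter, and when any of the 4 libraries was left out.

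Genes of MHC class I antigen presentation, from immunoproteasome subunits to heavy chains, were mostly lower with H11. This pathway cuts proteins in the immunoproteasome, carries the peptides through TAP into the endoplasmic reticulum and loads them on class I heavy chains with B2M. Of 9 chain and regulator genes tested, 6 were lower and 1 higher with H11, with a median of -1.91, and 2 were higher without replicate 2 of H11. Over all genes 25.7% were lower and 26.6% higher with H11. Against untreated cells, 7 of the 9 were above the threshold with IFNw and 1 with H11, beside 16.6% and 18.2% over all genes. With H11, 4 of the 9 were below it, beside 20.6% over all genes. B2M, the light chain, was at 415 and 426 CPM with H11, against 5908 and 6107 CPM with IFNw and 517 and 573 CPM in untreated cells, 14.3-fold lower with H11 (log2 -3.84 ± 0.24, edgeR adjusted p = 9.28e-10). HLA-B, a classical heavy chain, was at 89.1 and 102 CPM with H11, against 881 and 908 CPM with IFNw and 136 and 133 CPM in untreated cells (log2 -3.23 ± 0.18, edgeR adjusted p = 3.51e-10). For both genes the H11 libraries lay below the untreated libraries and far below the IFNw libraries. Against untreated cells the decrease with H11 passed the threshold for HLA-B (-0.49 ± 0.17, edgeR adjusted p = 0.0302), and B2M did not pass (-0.37 ± 0.21, edgeR adjusted p = 0.176). HLA-E, a ligand of natural killer cell receptors, was at 45.2 and 50.1 CPM with H11, against 178 and 181 CPM with IFNw and 41.7 and 42.9 CPM in untreated cells (log2 -1.91 ± 0.14, edgeR adjusted p = 5.61e-09). NLRC5, the transactivator of class I genes, ran against its targets, at 57.2 and 63.5 CPM with H11, against 25.2 and 30.2 CPM with IFNw and 6.19 and 8.98 CPM in untreated cells (log2 1.12 ± 0.17, edgeR adjusted p = 3.22e-05). NLRC5 was thus 2.18-fold higher with H11 while B2M, HLA-B and HLA-E were lower.

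The immunoproteasome and loading genes gave 8 lower and none higher of 13 tested, beside 25.7% lower over all genes. Their median was -1.42, or -1.11 with the length offset. PSMB9, an inducible catalytic subunit, was at 10.3 and 15.0 CPM with H11, against 344 and 344 CPM with IFNw and 12.4 and 13.2 CPM in untreated cells, 27.1-fold lower with H11 (log2 -4.76 ± 0.19, edgeR adjusted p = 1.06e-11). PSMB8, another inducible subunit, was at 56.9 and 59.2 CPM with H11, against 566 and 617 CPM with IFNw and 63.6 and 74.3 CPM in untreated cells (log2 -3.35 ± 0.13, edgeR adjusted p = 1.06e-11). PSME2, part of the PA28 activator, was at 53.4 and 61.9 CPM with H11, against 312 and 327 CPM with IFNw and 58.1 and 49.9 CPM in untreated cells (log2 -2.47 ± 0.13, edgeR adjusted p = 1.90e-10). In these 3 genes the H11 libraries were close to the untreated ones, with log2 differences from untreated cells of -0.01 ± 0.19, -0.25 ± 0.13 and 0.10 ± 0.13. TAP1, a subunit of the peptide transporter, stood between, at 105 and 109 CPM with H11, against 340.2 and 336 CPM with IFNw and 45.8 and 49.9 CPM in untreated cells (log2 -1.66 ± 0.12, edgeR adjusted p = 4.08e-09). Against untreated cells 4 of the 13 genes were above the threshold with H11 and 10 with IFNw, beside 18.2% and 16.6% over all genes. The constitutive catalytic subunits moved less, with PSMB5 at -0.80 ± 0.13, PSMB7 at -0.58 ± 0.13 and PSMB6 at -0.45 ± 0.10, and of these only PSMB5 stayed past the threshold with the length offset.

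Chemokine and guanylate-binding genes are typical targets of interferon gamma, and of those listed only GBP1, CXCL10 and CCL2 had enough reads to test. GBP1 was at 0.348 and 1.16 CPM with H11, against 5.71 and 3.55 CPM with IFNw and 0 and 0 CPM in untreated cells (log2 -2.58 ± 0.66, edgeR adjusted p = 0.00412). CXCL10, a T cell attractant, was at 0 and 0.91 CPM with H11, against 1.25 and 1.31 CPM with IFNw and 0 and 0 CPM in untreated cells, with an interval from -3.20 to 0.31. Calls in the group depended on single libraries: without replicate 1 of H11, GBP1 was at -1.98 (edgeR adjusted p = 0.051). Of 22 genes in the group 11 had enough reads to test. Of these 4 were lower and 1, IRF1, was higher, beside 25.7% lower and 26.6% higher over all genes. With the length offset 3 were higher, IRF1 together with CCL2 (0.86), a monocyte attractant, and the tRNA synthetase gene WARS (0.32). The number lower was 2 with the length offset or without replicate 1 of IFNw, and 1 without replicate 1 of H11. Genes of cell death and growth arrest were lower or not past the threshold, 6 and 6 of 12 tested, beside 25.7% lower over all genes. BID, which links death receptors to mitochondria, was at 5.04 and 2.98 CPM with H11, against 20.7 and 18.4 CPM with IFNw and 7.05 and 3.99 CPM in untreated cells (log2 -2.29 ± 0.29, edgeR adjusted p = 4.31e-06). XAF1, an interferon-induced antagonist of the apoptosis inhibitor XIAP, was at 1.74 and 1.41 CPM with H11, against 5.85 and 5.91 CPM with IFNw and 0 and 0 CPM in untreated cells (log2 -1.90 ± 0.39, edgeR adjusted p = 0.000762). CDKN1A (p21), which stops the cell cycle, was at 5.91 and 6.62 CPM with H11, against 15.2 and 16.8 CPM with IFNw and 13.7 and 11.4 CPM in untreated cells (log2 -1.35 ± 0.20, edgeR adjusted p = 2.94e-05). BID and XAF1 were above untreated cells with IFNw, and the H11 libraries of CDKN1A lay below the untreated ones.

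Taking the 8 interferon gene groups as 1 set of 124 tested genes, 57 were lower with H11, 22 higher and 45 not past the threshold, beside 25.7% lower and 26.6% higher over all genes. The median was -0.51, against 0.05 over all genes. The interval of the difference lay within 2-fold for 37 of the 124, beside 38.8% over all genes. With the length offset 56 were lower and 22 higher, with a median of -0.44.

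**Figure D3:**
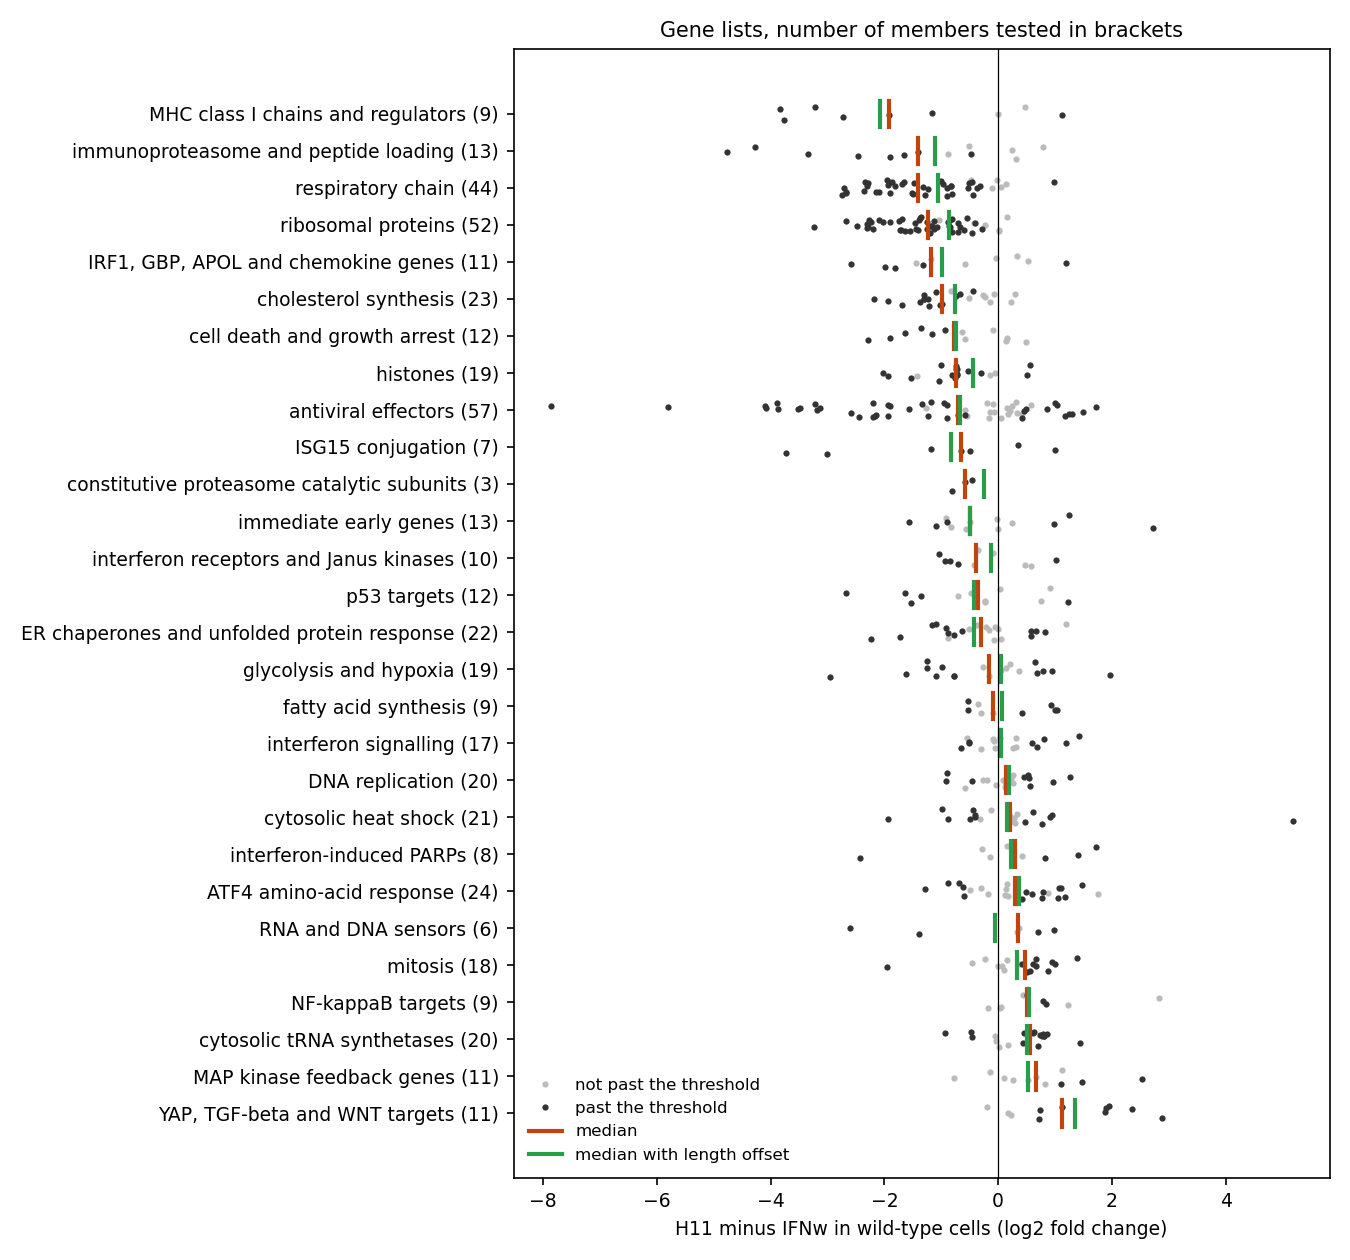
Log2 fold change (H11 minus IFNw) in wild-type cells of every tested gene of the gene lists other than cell type markers, dark where past the threshold. Long bars mark the median without and with the length offset. MHC class I and immunoproteasome genes have the lowest medians (-1.91 and -1.42), and YAP, TGF-beta and WNT targets have the highest of the lists shown (1.12).

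Outside the interferon pathway, most genes of the list of YAP, TGF-beta and WNT targets were higher with H11. Of 11 tested, 8 were higher and none lower, beside 26.6% higher over all genes, with a median of 1.12. The WNT targets AXIN2 (0.18) and NKD1 (0.22) and the ligand gene BMP4 (-0.20) did not pass the threshold. With the length offset the median was 1.35, and NKD1, a WNT inhibitor, was the 1 gene that was lower (log2 -0.75). CYR61, a secreted matrix protein and YAP target, was at 214 and 216 CPM with H11, against 28.1 and 30.1 CPM with IFNw and 19.1 and 19.6 CPM in untreated cells, 7.39-fold higher with H11 (log2 2.89 ± 0.14, edgeR adjusted p = 1.10e-10). CTGF, its relative, was at 18.4 and 18.4 CPM with H11, against 5.29 and 4.73 CPM with IFNw and 2.60 and 3.19 CPM in untreated cells (log2 1.88 ± 0.25, edgeR adjusted p = 7.62e-06). ID1, a repressor of differentiation induced by BMPs, was at 143 and 142 CPM with H11, against 38.4 and 35.3 CPM with IFNw and 20.8 and 24.3 CPM in untreated cells (log2 1.95 ± 0.16, edgeR adjusted p = 1.86e-08). In these 3 genes the IFNw libraries lay near or moderately above the untreated ones and the H11 libraries lay far above both. AMOTL2 (2.36) and SMAD7 (1.89), feedback inhibitors of YAP and TGF-beta signalling, were higher too. Feedback genes of MAP kinase signalling gave 3 higher of 11 tested, a share near the 26.6% over all genes, and 1 (DUSP4) was lower with the length offset or with the compared groups alone. The higher ones were led by the transcription factor ETV5 at 5.74 and 5.29 CPM with H11, against 0.835 and 1.05 CPM with IFNw and 3.91 and 3.19 CPM in untreated cells (log2 2.53 ± 0.45, edgeR adjusted p = 0.000169). Here the IFNw libraries were the ones that stood apart, below the untreated libraries. NF-kappaB targets gave 3 higher of 9 tested, also near that share, with NFKB2 at 0.80 ± 0.17 and SOD2 at 0.52 ± 0.13. Immediate early genes were mixed, with 3 higher and 3 lower of 13 tested, shares near those over all genes. Among them were KLF4 (1.25), JUNB (-1.10) and IER3 (-1.56).

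The 12 genes with the largest increases, among those with at least 5 CPM in a compared group and past the threshold with and without the length offset, are given as values, since the rule itself favours genes that are low with IFNw. IL7R, the interleukin-7 receptor, was at 6.26 and 5.46 CPM with H11 and had no read in either IFNw library, which makes it at least 28.9-fold higher with H11 against an upper limit of 3 reads over both IFNw libraries. CRYAB, a small heat shock protein, was at 9.74 and 15.6 CPM with H11, against 0 and 0.657 CPM with IFNw and 0 and 0 CPM in untreated cells (log2 5.18 ± 0.61, edgeR adjusted p = 2.55e-06). NEAT1, a long noncoding RNA that builds paraspeckles, was abundant and at 570.1 and 632 CPM with H11, against 42.0 and 46.2 CPM with IFNw and 95.3 and 113 CPM in untreated cells, 13.6-fold higher with H11 (log2 3.77 ± 0.18, edgeR adjusted p = 8.35e-11). NEAT1 libraries with IFNw lay below the untreated ones, and those with H11 above them. Secreted and matrix proteins were among the others, with PI15 at 21.0 and 25.7 CPM with H11, against 0.835 and 0.657 CPM with IFNw and 0.434 and 0.299 CPM in untreated cells (log2 4.95 ± 0.31, edgeR adjusted p = 1.11e-09). THBS1 (thrombospondin 1) was at 16.4 and 13.1 CPM with H11, against 1.53 and 1.45 CPM with IFNw and 1.84 and 3.09 CPM in untreated cells (log2 3.30 ± 0.33, edgeR adjusted p = 3.33e-07). TNC (3.85 ± 0.69), ENPP2 (3.87 ± 0.77), TAS2R13 (3.61 ± 0.64), GPR21 (3.53 ± 0.55), ARGFXP2 (3.40 ± 0.61) and MYOF (3.18 ± 0.33) were also among the 12.

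Among the 12 largest decreases by the same rule, 7 belonged to the interferon groups above and 5 did not. SULT2B1, a sterol sulfotransferase, was at 0.261 and 0.579 CPM with H11, against 14.8 and 10.8 CPM with IFNw and 6.62 and 5.39 CPM in untreated cells (log2 -4.87 ± 0.36, edgeR adjusted p = 7.13e-09). PRRX2, a homeobox factor, was at 0.174 and 0.91 CPM with H11, against 9.05 and 8.01 CPM with IFNw and 3.58 and 3.89 CPM in untreated cells (log2 -3.92 ± 0.46, edgeR adjusted p = 2.05e-06). In both genes the H11 libraries lay below untreated cells. HIST1H3C, a histone gene, was at 0.87 and 0.248 CPM with H11, against 12.2 and 10.2 CPM with IFNw, OMG, the oligodendrocyte myelin glycoprotein, at 0.609 and 0.331 CPM with H11, against 8.77 and 6.70 CPM with IFNw, and CARD16, a caspase-1 regulator, at 1.04 and 0.662 CPM with H11, against 12 and 13.3 CPM with IFNw. NEUROG2, a neural transcription factor, was at 1.04 and 1.32 CPM with H11, against 13.2 and 12 CPM with IFNw and 20.2 and 17.2 CPM in untreated cells, 10.5-fold lower with H11 than with IFNw (log2 -3.39 ± 0.27, edgeR adjusted p = 2.00e-08). TXNIP, which inhibits thioredoxin and glucose uptake, was at 6.17 and 7.36 CPM with H11, against 36.3 and 38.1 CPM with IFNw and 75.9 and 66 CPM in untreated cells (log2 -2.46 ± 0.19, edgeR adjusted p = 9.69e-09).

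Metabolic and stress genes are read beside the 52.2% of all genes that passed the threshold. ATF4 target genes, which respond to amino acid shortage, were mostly below untreated cells with either ligand. Of 24 tested, 21 were below with H11 and 21 with IFNw, beside 20.6% (H11) and 14.8% (IFNw) over all genes. Both counts rest on the same untreated libraries, so they are not independent of each other. Between the ligands 10 of the 24 genes were higher and 5 lower with H11, or 11 and 3 with the length offset. The share past the threshold was not far from that over all genes. CHAC1, which degrades glutathione, was at 12.8 and 14.9 CPM with H11, against 4.73 and 7.49 CPM with IFNw and 109 and 102 CPM in untreated cells (log2 1.17 ± 0.21, edgeR adjusted p = 0.000194). SLC7A11, the cystine importer, was at 44.9 and 59.7 CPM with H11, against 21.3 and 16.4 CPM with IFNw and 115 and 92.7 CPM in untreated cells (log2 1.47 ± 0.21, edgeR adjusted p = 2.00e-05). DDIT4, an inhibitor of mTORC1, was the reverse, at 11.5 and 14.2 CPM with H11, against 30.9 and 31.5 CPM with IFNw and 117 and 110.2 CPM in untreated cells (log2 -1.28 ± 0.19, edgeR adjusted p = 2.13e-05). ASNS (asparagine synthetase) did not pass, at 119 and 114 CPM with H11, against 104 and 106 CPM with IFNw and 411 and 383 CPM in untreated cells, with an interval from -0.14 to 0.44. Of 20 cytosolic tRNA synthetases, which charge tRNAs with amino acids, 13 were higher and 3 lower with H11, beside 26.6% higher and 25.7% lower over all genes, with a median of 0.57. TARS, for example, was at 337 and 318 CPM with H11, against 171 and 190.1 CPM with IFNw and 303 and 380.0 CPM in untreated cells, so it was the IFNw libraries that stood apart from untreated cells (log2 0.86 ± 0.18, edgeR adjusted p = 0.00062).

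Cholesterol synthesis genes gave 15 lower and none higher of 23 tested, beside 25.7% lower over all genes, with a median of -0.99. With the length offset the median was -0.76 and 1 was higher. IDI1, which isomerizes the building block of sterols, was at 95 and 92.7 CPM with H11, against 434 and 421 CPM with IFNw and 116 and 107 CPM in untreated cells, 4.56-fold lower with H11 (log2 -2.19 ± 0.11, edgeR adjusted p = 1.61e-10). INSIG1, which holds back the sterol-responsive factor SREBP, was at 9.83 and 13.8 CPM with H11, against 47.7 and 42.7 CPM with IFNw and 20.9 and 21.9 CPM in untreated cells (log2 -1.93 ± 0.19, edgeR adjusted p = 2.15e-07). In both genes the IFNw libraries were above untreated cells and the H11 libraries below them. Endoplasmic reticulum chaperones gave 8 lower and 4 higher of 22, near the share of all genes, among them HSPA5 (BiP) at 313 and 311 CPM with H11, against 727 and 666 CPM with IFNw and 276 and 256 CPM in untreated cells (log2 -1.16 ± 0.13, edgeR adjusted p = 9.29e-07). PDIA4 (-1.73 ± 0.15) and SDF2L1 (-2.24 ± 0.22) were lower as well. Heat shock genes were mixed, 6 higher and 7 lower of 21, again not far from it, with HSPE1, the mitochondrial co-chaperonin, at 451 and 434 CPM with H11, against 1783 and 1598 CPM with IFNw and 567 and 519 CPM in untreated cells (log2 -1.93 ± 0.13, edgeR adjusted p = 2.65e-09) and BAG3 (0.90 ± 0.20) the other way.

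Ribosomal protein and respiratory chain genes, both short and abundant, were mostly lower with H11, beside 25.7% lower over all genes. Of 52 ribosomal protein genes tested, 46 were lower with H11 and none higher, with a median of -1.23. With the length offset 40 were lower and 2 higher, with a median of -0.87. RPS27 was at 465 and 283 CPM with H11, against 3660.3 and 3363 CPM with IFNw and 1450.2 and 1268 CPM in untreated cells (log2 -3.23 ± 0.17, edgeR adjusted p = 2.16e-10). RPL39 was at 1221 and 1182 CPM with H11, against 8036 and 7299 CPM with IFNw and 4108 and 3470.2 CPM in untreated cells (log2 -2.67 ± 0.13, edgeR adjusted p = 8.47e-11). The H11 libraries lay below the untreated ones and the IFNw libraries above them. Of 44 respiratory chain genes, 38 were lower and 1 higher, with a median of -1.40, or 32 lower, 3 higher and -1.05 with the length offset. COX7B, a subunit of cytochrome c oxidase, was at 677 and 668 CPM with H11, against 4698 and 4131 CPM with IFNw and 1372 and 1218 CPM in untreated cells (log2 -2.72 ± 0.20, edgeR adjusted p = 6.53e-09), and UQCR11, a subunit of complex III, was at 211 and 231 CPM with H11, against 1472 and 1337 CPM with IFNw and 554 and 476 CPM in untreated cells (log2 -2.67 ± 0.12, edgeR adjusted p = 5.85e-11). Median transcript lengths were 663 bases for the ribosomal and 702.5 bases for the respiratory genes, against 1791.5 bases in the middle one of the 5 length bins. In the shortest bin (median 689.5 bases) 40.3% of genes were lower with H11, or 30.3% with the length offset. The part that length plays in these differences beyond the offset was not tested.

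Histone genes, whose clustered members lack a poly(A) tail, gave 14 lower and 2 higher of 19, beside 25.7% lower over all genes. Their median transcript length was 642.5 bases. In the shortest length bin 40.3% of genes were lower, or 30.3% with the length offset. The median log2 difference of the histone genes was -0.74. With the length offset 12 were lower and 3 higher, with a median of -0.43. HIST1H4C was at 1133 and 1327 CPM with H11, against 5048 and 5001 CPM with IFNw and 4807 and 5182 CPM in untreated cells (log2 -2.03 ± 0.13, edgeR adjusted p = 1.55e-09). Of 18 mitosis genes 10 were higher and 1 lower, beside 26.6% higher and 25.7% lower over all genes. With the length offset 7 of the 18 were higher and 1 lower, and 2 were lower with no low-count filter or with the compared groups alone. CENPF, a kinetochore protein with a long transcript, was at 101 and 120.4 CPM with H11, against 46.9 and 38.4 CPM with IFNw and 64.8 and 88.9 CPM in untreated cells (log2 1.38 ± 0.16, edgeR adjusted p = 1.64e-06). CDK1, the kinase that drives mitosis, was the one that was lower, at 308 and 305 CPM with H11, against 1222 and 1157 CPM with IFNw and 566 and 634 CPM in untreated cells (log2 -1.95 ± 0.16, edgeR adjusted p = 2.19e-08). TOP2A, which untangles DNA, was at 411 and 385 CPM with H11, against 217 and 197 CPM with IFNw and 390.2 and 429 CPM in untreated cells, lower with IFNw than in the other groups (log2 0.94 ± 0.12, edgeR adjusted p = 3.65e-06). CENPE, another kinetochore protein, gave 0.67 ± 0.17 without and -0.05 with the length offset.

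The labelled cell type was checked with markers. HEK293 lineage genes were present with both ligands, 8 of 10 tested, and their summed level was 691 and 664 CPM with H11, against 481 and 468 CPM with IFNw. All 8 passed the threshold, 5 higher and 3 lower with H11. Over all genes 52.2% passed it, 26.6% higher and 25.7% lower. Among the 8 were LHX1 (1.27 ± 0.19), CDH2 (1.15 ± 0.17) and KRT8 (-1.68 ± 0.20). Blood cell markers were near 0: of 11, only CD68, a lysosomal protein, had enough reads to test, at 5.48 and 5.05 CPM with H11, against 0.974 and 1.31 CPM with IFNw and 0.977 and 1.5 CPM in untreated cells, and CD4, LYZ, ITGAM and CSF1R had none in the compared libraries. Of 9 fibroblast markers 3 could be tested, and COL1A2, COL3A1, DCN and LUM had no reads there. None of 8 hepatocyte and epithelial markers and none of 11 interferon genes had enough reads to test. Their summed level per library lay between 0.278 and 1.58 CPM for the epithelial markers and between 0 and 1.22 CPM for the interferon genes.

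The same contrast was run in cells with optimized receptors, and the difference between the genotypes was tested directly. In optimized cells, H11 against IFNw put 0 of 12704 genes past the threshold with edgeR, 279 genes (2.2%) had an unadjusted p under 0.05, and DESeq2 called 0 of 18865. The 95% interval lay within 2-fold for 9720 genes (76.5%) in optimized cells. The genotype difference, wild-type minus optimized in the H11 minus IFNw value, passed the threshold for 4530 genes (35.7%), of which 2417 (19%) were negative and 2113 (16.6%) positive. ISG15 was at 544 and 627 CPM with H11 and 7706 and 7857 CPM with IFNw in wild-type cells, against 6759 and 7526 CPM with H11 and 7266 and 7770.0 CPM with IFNw in optimized cells. Its genotype difference was -3.66 ± 0.18 (edgeR adjusted p = 6.80e-10), and H11 minus IFNw in optimized cells had an interval from -0.34 to 0.19. B2M was at 415 and 426 CPM with H11 and 5908 and 6107 CPM with IFNw in wild-type cells, against 6282 and 6212 CPM with H11 and 5975 and 6175 CPM with IFNw in optimized cells (genotype difference -3.88 ± 0.31, edgeR adjusted p = 7.99e-08). For both genes, wild-type cells with H11 stood apart from the other 3 groups named. Wild-type cells with IFNL3 were not set beside them here, so the pattern is not shown to be particular to H11.

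IFIT2 and CYR61, both higher with H11 in wild-type cells, had positive genotype differences. IFIT2 was at 60.1 and 62.0 CPM with H11 and 21.4 and 21.8 CPM with IFNw in wild-type cells, against 23.5 and 13.6 CPM with H11 and 18.9 and 26.3 CPM with IFNw in optimized cells (genotype difference 1.78 ± 0.30, edgeR adjusted p = 0.00018). CYR61 was at 214 and 216 CPM with H11 and 28.1 and 30.1 CPM with IFNw in wild-type cells, against 29.6 and 24.3 CPM with H11 and 29.7 and 30.9 CPM with IFNw in optimized cells (genotype difference 3.05 ± 0.20, edgeR adjusted p = 1.52e-08). Again wild-type cells with H11 lay apart, here above the other groups. The genotype difference contains the wild-type difference by which all 4 of these genes were described above, so its sign is not independent of it. Over the 124 interferon genes, the genotype difference was negative past the threshold for 52 and positive for 19. Over all genes 19% were negative and 16.6% positive, so the positive share of the 124 was near that of all genes. Of 37 genes named one by one for this test, with their wild-type values known, 28 passed it, 17 negative and 11 positive. Over all genes 35.7% passed it. The smallest edgeR adjusted p of the 37 in optimized cells alone was 0.999.

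**Figure D4:**
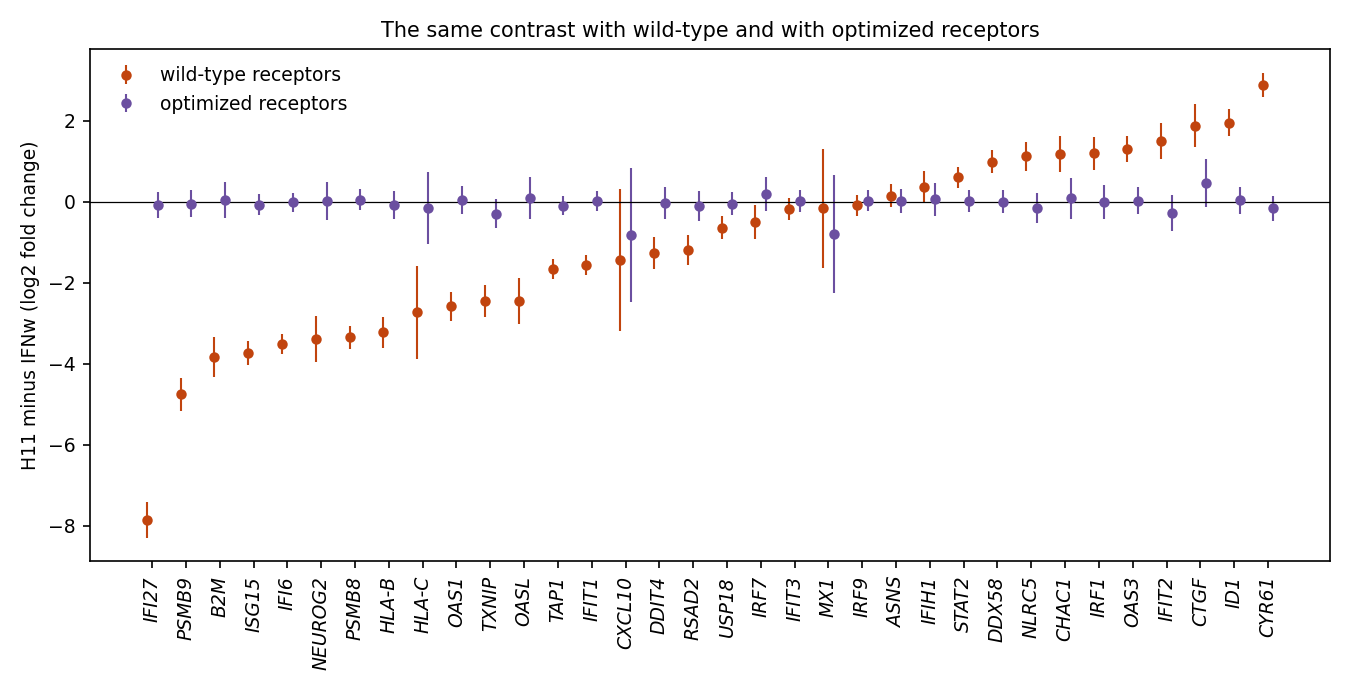
Log2 fold change (H11 minus IFNw) with its 95% interval for 34 of the 37 genes named for the genotype test, in cells with wild-type and with optimized receptors, ordered by the wild-type value. Genes with 3 reads or fewer in a compared group (IL7R, CRYAB and INHBE) are left out. Wild-type values run from -7.87 (IFI27) to 2.89 (CYR61), and the optimized values run from -0.82 (CXCL10) to 0.46 (CTGF).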

How the data were processed

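RNA of HEK293 cells was counted in 16 libraries of 8 groups (2 receptor genotypes by 4 treatments, 2 replicates each, which the labels mark as biological). The deposited files hold whole-number read counts for 20812 targets per library, 1 target per gene symbol with an Entrez identifier, as the file headers and the whole numbers show, and the authors applied no normalization to them. The labels' protocols name a column kit for total RNA and an Ion Torrent 540 or 550 library kit. Per the submitters' processing notes the genome build was hg19. The sources used here do not name the aligner or the counter, the use of strand or the targets' positions, and no gene coordinates are given in that build. Library totals lay between 5331203 and 9822088 reads. The labels name no molecular identifiers, and intervals and limits of 3 reads per group cover counting error only.

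The 10 spike-in targets (at most 1 read in any library) were left out, and 27 of 28 symbols that had become dates were renamed from their Entrez identifier. Counts were fitted with edgeR 4.0.16 in R 4.3.3 (filterByExpr, TMM factors, quasi-likelihood test) over all 16 libraries with a coefficient per group (biological coefficient of variation 13.3%). A gene passed at a Benjamini-Hochberg adjusted p under 0.05 over 12704 genes. CPM relate each count to the TMM-scaled library size. A second edgeR fit removed, in each library, a natural spline (5 df) of log transcript length (GENCODE 29, median over protein-coding transcripts) and is called the length offset. Other alternatives were DESeq2 1.42.0, edgeR with DESeq2's size factors, no filter on low counts, a replicate block, the compared groups alone, and each replicate left out. The tests were checked on simulated counts with known changes. Between the replicates of a group, chi-square over its degrees of freedom was 6.31 or more, above sampling noise in each of the 8 groups.

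Genes named were the 12 with the largest change in each direction (past the threshold with and without the length offset, libraries of the 2 ligands apart, at least 5 CPM in a group), up to 6 of each of 33 gene lists (those past the threshold first, then by size of change), the receptors and kinases, and a panel, of which 37 are given. Some genes that this rule names are not reported here. HERC5, NKD1, AXIN2, BMP4, CCL2 and WARS were named after their values were seen. The members, lists and tests were chosen with earlier results of these data known. Of the list entries 606 matched a target, and the other 4 were not analysed here. Promoter sequences are from RefSeq (GRCh38.p14).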

Additional observations from a re-analysis of the deposited data

Results flagged for a closer look

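The difference between H11 and IFNw depended on the receptor genotype for 4530 genes (edgeR test of the difference, adjusted p under 0.05), and this test is why the values below are listed. All are log2 values for wild-type minus optimized cells in the H11 minus IFNw difference.

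Antiviral and signalling genes with a negative value were ISG15 (-3.66), IFI6 (-3.50), IFI27 (-7.78), IFIT1 (-1.59), OAS1 (-2.63), OASL (-2.54), RSAD2 (-1.08) and USP18 (-0.60). Those with a positive value were IFIT2 (1.78), OAS3 (1.28), DDX58 (0.98), STAT2 (0.58) and IRF1 (1.20). In optimized cells IFIT1 was at 2215 and 2019 CPM with H11, against 2189.8 and 1986 CPM with IFNw, and OAS3 was at 33.9 and 31.1 CPM with H11, against 32.4 and 31.7 CPM with IFNw. For both genes the libraries of the 2 ligands overlapped there.

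Antigen presentation genes gave B2M (-3.88), HLA-B (-3.15), HLA-C (-2.57), PSMB8 (-3.40), PSMB9 (-4.70) and TAP1 (-1.56), all negative, and NLRC5 (1.28), positive. PSMB9 in optimized cells was at 309 and 315 CPM with H11, against 297 and 351 CPM with IFNw. Its libraries overlapped there, whereas in wild-type cells they were apart (10.3 and 15.0 CPM with H11, against 344 and 344 CPM with IFNw).

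Genes outside the interferon pathway gave CYR61 (3.05), CTGF (1.42), ID1 (1.92) and CHAC1 (1.09) as positive, and DDIT4 (-1.25), NEUROG2 (-3.41) and TXNIP (-2.15) as negative. IL7R had a fitted value of 12.10, which depends on the prior count because wild-type cells with IFNw had no read, and is no bound.

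Some of these calls rested on single libraries. STAT2 missed the threshold when any of 5 of the 8 libraries was left out (values from 0.51 to 0.58) and with the length offset (0.33, edgeR adjusted p = 0.176). USP18 missed it when any of 4 libraries was left out (values from -0.54 to -0.49). HLA-C missed it without replicate 1 of IFNw in wild-type cells (-1.88, edgeR adjusted p = 0.071). CTGF missed it without replicate 2 of IFNw in optimized cells (1.14, edgeR adjusted p = 0.0638). CHAC1 missed it without replicate 1 of IFNw in wild-type cells (0.78), without replicate 1 of H11 in optimized cells (1.02) and without replicate 2 of IFNw in optimized cells (0.78).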

How the results depend on the processing

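The number of genes past the threshold between H11 and IFNw stayed within 1.5 times of 6632 under all alternatives run. It was 6107 with DESeq2, 6607 with DESeq2 size factors, 6700 with no low-count filter, 6115 with the length offset, 7023 with the compared groups alone, and between 5274 and 5522 when 1 library was left out. For the genotype difference the counts in the same order were 4160, 4500, 4709, 4048, 5019 and, with 1 library left out, between 3668 and 3872. Where 1 library of a group was left out, the other one was assumed to vary like the libraries of the remaining groups. Of 2248 values of 205 named genes under these settings, 2158 kept their direction and side of the threshold, 64 fell short of it, 22 newly passed it and 4 changed direction. Those 4 were MAVS (-0.15 with the length offset and -0.15 with the replicate block added to it) and CENPE (-0.0476 and -0.0486 under the same settings). The medians of the sensor list (-0.0505 and -0.0490) and of the fatty acid list (0.0648 and 0.0661) changed sign under the same settings, and that of the immediate early genes lay between -0.73 and 0.23 when 1 library was left out, positive without replicate 2 of IFNw. The medians of the glycolysis list (0.06 with the length offset), the interferon signalling list (0.03, and -0.07 without replicate 2 of H11) and the fibroblast markers (-0.22, and 0.13 with the length offset) changed sign by less than the spread between libraries. The cause was not tested. With replicate number as a block 7206 genes passed, or 6666 with the length offset as well, and 5187 or 4678 for the genotype difference. The block alone ended no call of a named gene. It put 4 more past the threshold between H11 and IFNw (IFNAR1, PARP14, DUSP4 and ZMAT3), and IRF7 in the genotype difference. Deviations of same-numbered H11 and IFNw libraries correlated at 0.176. All 28 such correlations between groups were positive, from 0.0846 to 0.2115 with a median of 0.158. Same-numbered libraries of different groups thus deviated in part together. The main fit has no term for this, and the fit with the block is given as an alternative. Depth limited genes with few reads: 3 reads over a group correspond to 0.127 CPM with H11, 0.203 CPM with IFNw and 0.156 CPM in untreated cells.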

Other observations

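Gene groups that the report does not describe were divided by member, and their counts are read beside 26.6% higher and 25.7% lower over all genes. Of 19 glycolysis and hypoxia genes tested, 5 were higher and 8 lower with H11, with a median of -0.16, or 0.06 with the length offset and -0.10 without replicate 1 of H11, and 3 were higher without replicate 1 of IFNw. ANKRD37, a target of hypoxia-inducible factors, was at 3.74 and 4.22 CPM with H11, against 38.4 and 23.4 CPM with IFNw and 10.5 and 6.58 CPM in untreated cells (log2 -2.95 ± 0.27, edgeR adjusted p = 1.15e-07). ADM (adrenomedullin), a target of the same factors, was at 46.5 and 49.3 CPM with H11, against 11.4 and 13 CPM with IFNw and 16.7 and 15.2 CPM in untreated cells (log2 1.97 ± 0.20, edgeR adjusted p = 3.02e-07). These targets of 1 pathway thus differed in opposite directions. BNIP3, a mitophagy receptor, was at 109.8 and 117 CPM with H11, against 346 and 349 CPM with IFNw and 158 and 165 CPM in untreated cells (log2 -1.61 ± 0.14, edgeR adjusted p = 7.33e-08).

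Of 12 p53 targets 1 was higher and 4 lower, or 2 higher with the length offset or without replicate 1 of H11. MDM2, which degrades p53, was at 124 and 121 CPM with H11, against 50.5 and 53.9 CPM with IFNw and 71.8 and 72.7 CPM in untreated cells (log2 1.23 ± 0.13, edgeR adjusted p = 6.62e-07), and FDXR, a mitochondrial reductase, was at 23.5 and 23.8 CPM with H11, against 60.4 and 75.8 CPM with IFNw and 34.6 and 46.2 CPM in untreated cells (log2 -1.53 ± 0.16, edgeR adjusted p = 6.22e-07). Of 20 DNA replication genes 6 were higher, a share near the 26.6% over all genes, and 3 lower, with a median of 0.13. RRM1, the large subunit of ribonucleotide reductase, was at 60.9 and 58.2 CPM with H11, against 25.8 and 23.9 CPM with IFNw and 48.2 and 47.9 CPM in untreated cells (log2 1.26 ± 0.17, edgeR adjusted p = 9.54e-06), and PCNA, the sliding clamp, was at 416 and 290.2 CPM with H11, against 736 and 573 CPM with IFNw and 463 and 376 CPM in untreated cells (log2 -0.89 ± 0.17, edgeR adjusted p = 0.000329). Of 9 fatty acid synthesis genes 4 were higher and 2 lower. ACACA, the committed enzyme of the pathway, was at 70.5 and 71.2 CPM with H11, against 39.3 and 30.3 CPM with IFNw and 54.9 and 50.9 CPM in untreated cells (log2 1.03 ± 0.18, edgeR adjusted p = 0.000146), and ME1, which supplies NADPH, was at 167 and 136 CPM with H11, against 75.4 and 76.2 CPM with IFNw and 100.1 and 107 CPM in untreated cells (log2 1.00 ± 0.16, edgeR adjusted p = 4.48e-05). For both genes the H11 libraries lay above the IFNw libraries.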
